A study of Danio rerio with 13 samples.

Results

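Of the 32105 genes counted in zebrafish skin, 4 genes that lie near tert on its chromosome are described here: hnrnpr (ENSDARG00000014569), sema6ca (ENSDARG00000002748), slc6a18 (ENSDARG00000068387) and si:ch211-149a19.3 (ENSDARG00000079456). They were chosen because their levels had been seen to differ between tert genotypes in these same samples. Their genotype differences are therefore given as a description, with no test. All 4 were among the 19141 genes kept by the filter on low counts.

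The samples were RNA-seq libraries from the skin of 3-month-old male fish of the AB strain. There were 3 homozygous mutants (HOM, tert-/-), 5 heterozygotes (HET, tert+/-) and 5 wild types (WT, tert+/+), all untreated as far as the labels say. The mutants carried the tert hu3430 allele, a nonsense mutation of the germline, and all came from this 1 line. The study's methods give the same n for each genotype across its tissues, so each sample is taken as 1 fish, while shared parents are not given in the sources used here.

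The tert gene encodes the catalytic protein of telomerase, which adds repeats to chromosome ends. Genes close together on a chromosome are usually inherited together, so fish sorted by their tert alleles are also sorted by the stretch of chromosome around tert. In the design used here, the tert genotype and whatever else is carried on that stretch cannot be told apart. The count table holds no sequence variants, and the build to which the reads were aligned was not used here, so no sequence or position is printed.

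In the order of genes in the RefSeq table of the assembly GRCz12tu, which counts every annotated gene as 1 place, slc6a18 directly follows tert. sema6ca lies 10 places before tert, hnrnpr 34 places before it and si:ch211-149a19.3 50 places after it. Only 45 genes lie between tert and the chromosome end on the side of hnrnpr. None of the 4 lies next to another.

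The hnrnpr protein binds RNA in the nucleus and takes part in splicing and in the transport of messenger RNA. sema6ca encodes a semaphorin held in the cell membrane, a family known from mammals for steering growing axons and other moving cells through plexin receptors. slc6a18 encodes a transporter of the Slc6 family, which in mouse carries neutral amino acids into kidney tubule cells. No role is annotated for si:ch211-149a19.3 in the sources used here.

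Total counts ranged from 15709310 to 30249877 per sample, and mitochondrially encoded genes took 19.9% (HOM1) to 56.4% (HOM3) of them. Keratinocyte markers were present in every sample, with a summed level of 12700 to 33181 CPM in HOM, 10312 to 21145 in HET and 7173 to 37590 in WT (12 of 13 markers found). The summed liver markers (12 of 12 found) ran from 51.7 to 425.8 CPM in HOM, 170.9 to 478.2 in HET and 75.5 to 27461 in WT, with the highest WT values in WT5 and WT1. edgeR's quasi-likelihood test called 0 of 19141 genes in each comparison (smallest adjusted p = 0.9999 for HOM versus WT, 0.794 for HET versus WT and 0.9998 for HOM versus HET). At an unadjusted p below 0.05 there were 522 genes for HOM versus WT (2.73%), 1051 for HET versus WT (5.49%) and 525 for HOM versus HET (2.74%). DESeq2 called 36 (0.189% of the 19026 genes to which it gave an adjusted p), 123 (0.783% of 15699) and 1 (0.00526% of 19026) in the same order. Genes to which it gave none, such as slc6a18 in HET versus WT, count as not called.

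Levels are given as CPM, read counts relative to library size after scaling by the trimmed mean of M-values (TMM), unless unscaled values are named. Marker sums are unscaled CPM. In bulk skin, fewer cells of a type and less RNA per cell cannot be told apart.

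The RNA-binding protein gene hnrnpr was lower in HOM than in every other sample. It stood at 46.6, 47.7 and 51.9 CPM in HOM1, HOM2 and HOM3, at 70.0, 73.7, 72.2, 62.5 and 98.0 CPM in HET1 to HET5, and at 96.2, 92.2, 73.1, 70.5 and 96.1 CPM in WT1 to WT5. HOM lay close together and below both other genotypes, whereas HET and WT covered much the same range. The mean was 48.7 ± 2.80 CPM in HOM (SD, n = 3), 75.3 ± 13.4 in HET (n = 5) and 85.6 ± 12.7 in WT (n = 5). On the log2 scale the difference was -0.81 ± 0.20 (fold change ± SE) in HOM versus WT, or 56.9% of the WT level, -0.63 ± 0.20 for HOM versus HET and -0.19 ± 0.17 for HET versus WT. The scaled level was 46.6 CPM in HOM1, with a mitochondrial share of 19.9%, and 51.9 CPM in HOM3, with a share of 56.4%. The part of the mitochondrial share in the level of hnrnpr was not tested. In unscaled CPM, HOM (66.8, 37.3 and 39.9) stayed below WT (68.3 to 121.4), but HOM1 lay above HET2 (65.3), HET3 (58.6) and HET4 (60.1).

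The semaphorin gene sema6ca was also lowest in HOM, with a larger relative difference and a wide spread in the other genotypes. It had 1.84, 3.71 and 3.15 CPM in HOM1 to HOM3, against 6.6, 7.17, 7.39, 7.84 and 22.7 CPM in HET1 to HET5 and 14.6, 15.3, 6.89, 4.88 and 24.7 CPM in WT1 to WT5. All HOM values lay below all others, also in unscaled CPM (2.42 to 2.91 in HOM, 5.99 to 21.6 in HET and 4.72 to 23.1 in WT). The means were 2.90 ± 0.961 CPM in HOM (SD, n = 3), 10.3 ± 6.91 in HET (n = 5) and 13.3 ± 7.85 in WT (n = 5). The log2 fold change was -2.20 ± 0.60 for HOM versus WT (21.7% of the WT level), -1.84 ± 0.59 for HOM versus HET and -0.36 ± 0.47 for HET versus WT.

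Skeletal muscle signal was high in the samples with the most sema6ca, WT5, HET5 and WT2, but not in WT1, which had 14.6 CPM of sema6ca and 4018 CPM of summed muscle markers. The markers (6 of 11 found) stood at 19392 CPM in HET5, 17038 in WT5 and 17696 in WT2, and at 1019 in WT4, which had the lowest sema6ca of the WT samples. HOM2, with 12328 CPM of muscle markers, had 3.71 CPM of sema6ca, below the 4.88 CPM of WT4. HET4 held 15728 CPM of muscle markers with 7.84 CPM of sema6ca. The part of muscle in the spread of sema6ca was not tested. Without HET5 the log2 fold change of HET versus WT was -0.87, and without WT5 it was -0.01. HOM versus HET was -1.33 without HET5.

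The largest ratio was that of si:ch211-149a19.3, which was lowest in HOM. It had 17, 16 and 5 counts in HOM1 to HOM3, which is 0.396, 0.792 and 0.414 CPM. In HET1 to HET5 it stood at 4.76, 1.70, 3.86, 2.58 and 2.89 CPM, and in WT1 to WT5 at 29.0, 9.90, 7.66, 2.73 and 1.48 CPM. HOM lay below every HET and every WT sample, while HET fell inside the range of WT. WT itself spanned almost the whole scale, and its SD exceeded its mean (0.534 ± 0.224 CPM in HOM, 3.16 ± 1.18 in HET and 10.2 ± 11.1 in WT, SD, n = 3, 5 and 5). The log2 fold change was -4.24 ± 0.93 for HOM versus WT (5.28% of the WT level), -2.55 ± 0.87 for HOM versus HET and -1.69 ± 0.65 for HET versus WT. Without WT1, the sample with 29.0 CPM, the values against WT were -3.32 for HOM and -0.80 for HET.

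Counting error alone set limits on the lowest values of this gene. The exact (Clopper-Pearson) 95% interval of the unscaled level was 0.354 to 1.01 CPM in HOM2 (16 counts) and 0.992 to 1.89 CPM in WT5 (40 counts), so these intervals touched. The interval of HET2 (28 counts) was 1.001 to 2.18 CPM and touched that of HOM2 as well. In WT1 (960 counts) the interval was 34.3 to 39.0 CPM. Such intervals cover counting error only and leave out variation between fish. They are too narrow even for counting error where reads are not independent molecules. Summed liver markers stood at 4643 CPM in WT1, 1209 in WT2, 75.5 in WT3, 204.1 in WT4 and 27461 in WT5. WT1 and WT2, which had the most of the gene, and WT5, which had the least, were the WT samples with the most liver signal, and its part in the spread was not tested. In the GRCz12tu annotation the gene overlaps its neighbour ggcta, and the library kit does not mark strand, so strand cannot assign reads of a shared part. Whether these genes overlap in the GRCz10 annotation used for the counts, and how shared reads were counted, was not checked. ggcta had 2 to 15 counts in HOM, 5 to 8 in HET and 2 to 6 in WT, too few to be kept by the filter.

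**Figure D1:**
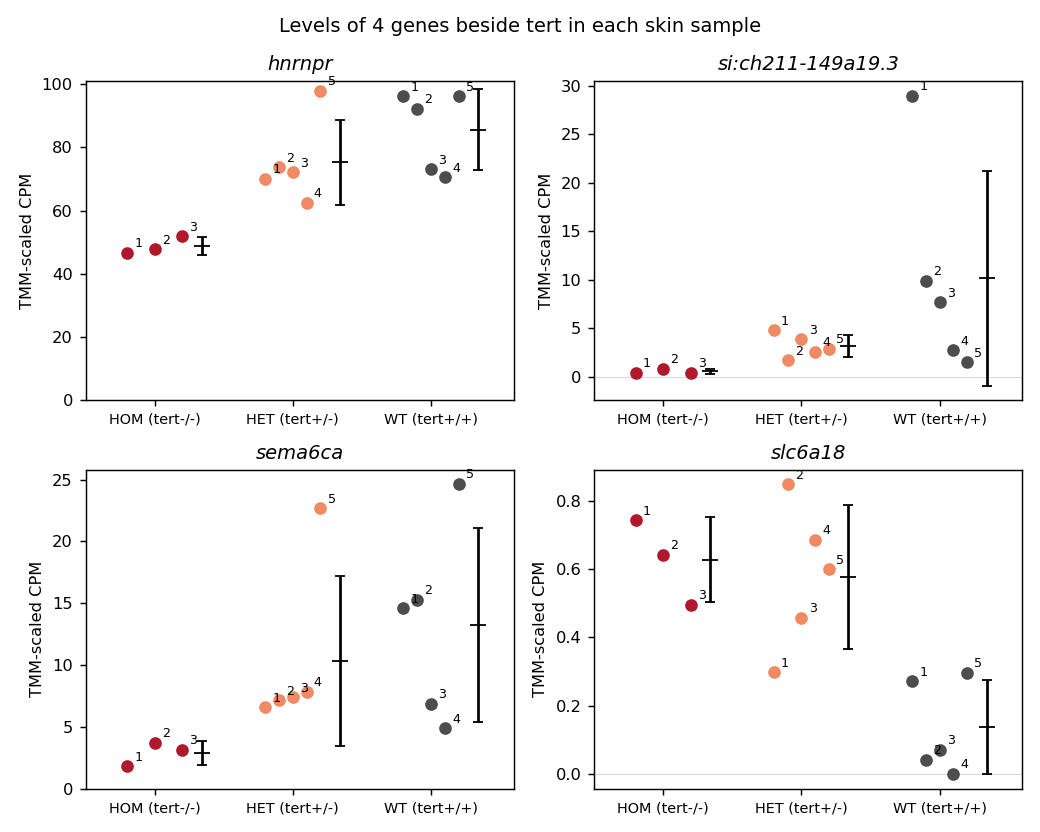
TMM-scaled CPM of hnrnpr, si:ch211-149a19.3, sema6ca and slc6a18 in each of 13 skin samples (numbered points) for HOM, HET and WT, with the mean and SD beside each genotype and a separate linear axis for each gene. HOM lies below all other samples for hnrnpr (at most 51.9 CPM), si:ch211-149a19.3 (at most 0.792) and sema6ca (at most 3.71), and both mutant genotypes lie above WT for slc6a18 (at most 0.296 CPM in WT).

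The transporter gene slc6a18, the next gene to tert, went the other way and was higher in both mutant genotypes. It was a rare transcript everywhere, with 32, 13 and 6 counts in HOM1 to HOM3, 5, 14, 7, 20 and 16 in HET1 to HET5, and 9, 1, 2, 0 and 8 in WT1 to WT5. On the scaled axis this is 0.497 to 0.744 CPM in HOM, 0.298 to 0.85 in HET and 0 to 0.296 in WT. HOM and HET overlapped and lay above WT, although HET1 (0.298 CPM) and WT5 (0.296) differed by almost nothing. The means were 0.628 ± 0.125 CPM in HOM (SD, n = 3), 0.579 ± 0.212 in HET (n = 5) and 0.136 ± 0.138 in WT (n = 5). The log2 fold change was 2.11 ± 0.69 for HOM versus WT (4.32-fold), 1.98 ± 0.63 for HET versus WT (3.95-fold) and 0.13 ± 0.67 for HOM versus HET.

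For slc6a18 the separation rested on few reads. The exact 95% interval of the unscaled level was 0.140 to 0.831 CPM in HOM3 (6 counts) and 0.101 to 0.728 in HET1 (5 counts), against 0.157 to 0.652 in WT1 (9 counts). The 0 counts of WT4 allow a level of up to 0.169 CPM by the limit of 3 counts, a one-sided bound, and the exact two-sided interval of WT4 reaches 0.207 CPM. Without scaling, HET1 (0.312 CPM) lay below WT1 (0.343), so HET and WT overlapped, while HOM (0.382 to 1.07) stayed above WT. With WT1 left out and scaling redone, HET and WT overlapped as well. Markers of kidney tubule, where mouse uses this transporter, and of intestine (9 of 12 found) were summed together. They came to 5.41 to 13.0 CPM in HOM, 6.14 to 11.7 in HET and 6.06 to 103.6 in WT. The highest WT values of single genes on this list were 71.1 CPM for fabp2 and 23.3 for hnf4a. On the same list cubn, slc13a3 and slc26a1 reached at most 1.14, 0.991 and 0.871 CPM in any sample. The highest sum in WT therefore cannot be read as signal of kidney tubule. WT5 held the 103.6 CPM and 8 counts of slc6a18, and the part of these markers in the level of slc6a18 was not tested.

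In HOM, 3 of the members lay below WT without overlap and 1 lay above. Of all genes tested, 0.742% (142) lay lower without overlap in HOM than in WT, and 0.439% (84) lay higher. Between HOM and HET, the members below without overlap were hnrnpr, sema6ca and si:ch211-149a19.3, as were 1.53% (293) of all genes, with 0.972% (186) above. Between HET and WT only slc6a18 did not overlap among the members, and 0.366% (70) of all genes lay higher in this way. As the members were chosen on these contrasts, nothing is read from their own counts.

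HOM lay below every HET and every WT sample in 33 genes (0.172% of those tested). Of these, 25 could be placed on a chromosome, 6 on that of tert, and 4 within 50 places of tert. The 4 are hnrnpr, sema6ca, si:ch211-149a19.3 and dus3l, a tRNA-modifying enzyme gene that is no member. The 3 members were chosen for such differences, so nothing is read from their places. dus3l was 1 of the 41 other genes tested within 50 places. Besides the members and tert, 564 of the 19141 genes tested were placed on the chromosome of tert. HOM and HET both lay above every WT sample in 9 genes (0.047%), among them slc6a18 and tert, which are the 2 within 50 places of tert. As slc6a18 was chosen for its levels, nothing is read from its place here either. Without scaling, tert overlapped with WT in both mutant genotypes (12.9 to 28.7 CPM in HOM, 13.9 to 38.6 in HET and 6.86 to 16.6 in WT). No gene had HOM below HET below WT with all 3 genotypes apart (0 of 19141).

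The members differed in where the heterozygotes stood. On the log2 scale, HET had gone 22.9% of the way from WT to HOM for hnrnpr and 16.3% for sema6ca. These shares moved with the processing and with single samples. For hnrnpr the share was 45.2% without scaling and 9.83% without WT1 and WT5, and for sema6ca it was 39.7% without HET5, 0.633% without WT5 and -11.7% (HET above WT) without WT1 and WT5. For si:ch211-149a19.3 it was 39.8%, with 24.0% without WT1 and 62.4% on log2(RPKM + 1). For slc6a18 it was 93.9%, and 79.7% to 100.3% over the alternatives. tert itself stood at 98.6%, with 23.2 ± 12.3 CPM in HOM, 22.9 ± 10.4 in HET and 10.7 ± 2.5 in WT. The distance of HET from the midpoint between HOM and WT, on the log2 scale, was 0.22 for hnrnpr, 0.74 for sema6ca, 0.43 for si:ch211-149a19.3 and 0.93 for slc6a18. The pooled SD between samples of a genotype was 0.21, 0.79, 1.12 and 0.69 in that order. This SD describes single samples and is not the error of the distance, which was not computed. Whether HET lay off the midpoint was therefore not decided for any member.

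**Figure D2:**
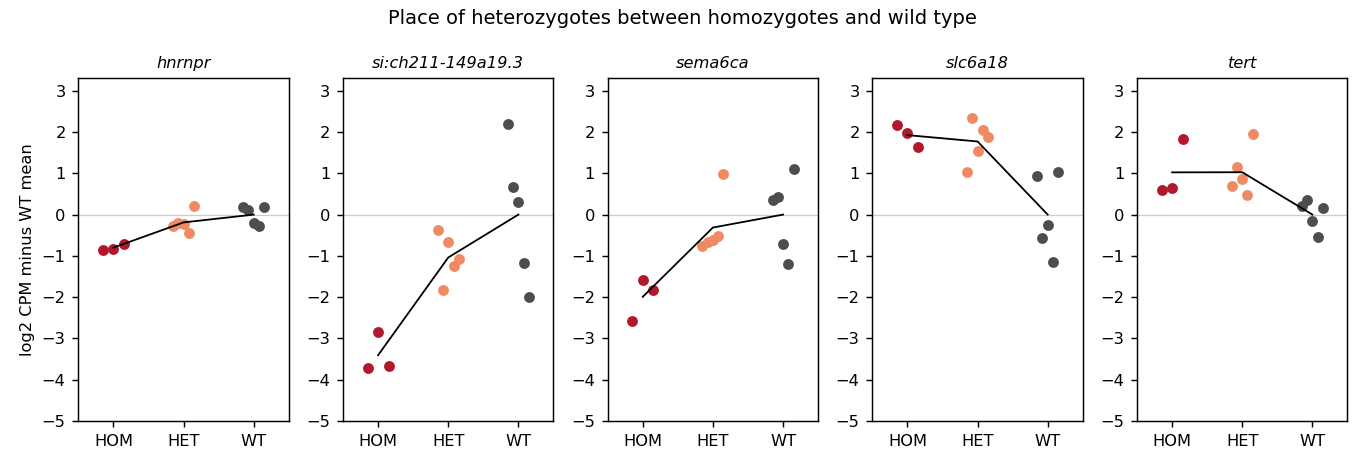
log2 CPM of hnrnpr, si:ch211-149a19.3, sema6ca, slc6a18 and tert in each sample, with the mean of WT set to 0, for HOM, HET and WT; lines join the genotype means. In the fitted values of all 13 samples the HET mean lies 22.9% (hnrnpr) and 16.3% (sema6ca) of the way from WT to HOM, with 45.2% for hnrnpr without scaling, and 93.9% (slc6a18) and 98.6% (tert).

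Because slc6a18 directly follows tert and both were higher in mutants, their counts were set side by side. slc6a18 had 4.74, 3.92 and 1.33 counts for every 100 counts of tert in HOM1 to HOM3, 1.76, 3.64, 2.4, 4.75 and 1.48 in HET1 to HET5, and 2.27, 0.305, 0.760, 0 and 2.54 in WT1 to WT5. The genotypes overlapped in this ratio, as WT1 and WT5 lay inside the range of HOM and HET. The samples with the most tert for their size, HET5 (40.5 CPM) and HOM3 (37.3), had 0.600 and 0.497 CPM of slc6a18. These values rest on 16 and 6 counts, too few to rank the samples. A link between the levels of slc6a18 and tert was not tested.

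Levels can be compared between these genes only per length, as RPKM (scaled CPM divided by the gene length in kilobases), with the gene lengths implied by the deposited tables. hnrnpr was the most abundant, with 15.1 RPKM in HOM, 23.3 in HET and 26.5 in WT, above about 88.6% of tested genes in HOM and 93.1% in WT. sema6ca had 0.858 RPKM in HOM, 3.06 in HET and 3.93 in WT, at percentile 28.7 of tested genes in HOM and 61.9 in WT. si:ch211-149a19.3 had 0.0872 RPKM in HOM, 0.516 in HET and 1.66 in WT, which is percentile 2.63 in HOM and 40.9 in WT. slc6a18 had 0.288 RPKM in HOM, 0.265 in HET and 0.0622 in WT, at percentile 12.2 in HOM and 0.496 in WT. By length, slc6a18 was thus the rarest of these genes in HET and WT, whereas si:ch211-149a19.3 was the rarest in HOM. The percentiles are ranks among genes kept by the filter on low counts. slc6a18, with 0 to 9 counts in WT, and si:ch211-149a19.3, with 5 to 17 in HOM, were kept through the other genotypes. Their low percentiles there follow in part from the filter, so nothing is read from them.

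The rest of the neighbourhood was then examined, leaving out the members and tert. Within 50 places of tert the RefSeq table lists 91 other genes, 46 of them matched an ID of the count table by name and 41 were tested. Of these, 0 passed edgeR's test and 0 passed that of DESeq2 in any comparison. As edgeR called 0 of all 19141 genes and DESeq2 at most 0.783%, nothing is read from these 0 counts. edgeR gave an unadjusted p under 0.05 for 4 of the 41 in HOM versus WT, 4 in HET versus WT and 2 in HOM versus HET. Over all genes tested the shares at this threshold were 2.73%, 5.49% and 2.74% in that order. The median log2 fold change was -0.11 in HOM versus WT, 0.03 in HET versus WT and -0.04 in HOM versus HET, beside -0.05, -0.04 and -0.01 over all genes tested. In HOM versus WT, 4 of the 41 genes did not overlap, which is 9.76%, beside 1.18% of all genes tested. For the chromosome of tert the share was 1.60% of 564 tested genes, a set that includes these 41. In HET versus WT the count was 0 of 41, beside 0.564%, and in HOM versus HET it was 3 of 41 (7.32%), beside 2.5%. Those 3 were dus3l, ppp1r18 and tmem65, all lower in HOM, of which ppp1r18 and tmem65 are named after their values were seen. In the narrower window of 20 places, 19 genes were tested, and 3 (15.8%), 0 and 2 did not overlap in these comparisons.

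The tRNA dihydrouridine synthase gene dus3l, 2 places from sema6ca, stood at 6.82, 7.23 and 6.79 CPM in HOM1 to HOM3, against 8.15 to 11.4 CPM in HET and 8.79 to 10.8 in WT. The log2 fold change of dus3l was -0.46 ± 0.18 for HOM versus WT and 0.08 ± 0.16 for HET versus WT. The histone methyltransferase gene ehmt2, 20 places after tert, had 5.20 to 6.49 CPM in HOM, 4.16 to 9.68 in HET and 7.63 to 11.2 in WT (-0.62 ± 0.29 for HOM versus WT). ensaa, the gene of a phosphatase inhibitor of mitosis, lay higher in HOM, with 0.745 to 1.05 CPM, against 0.196 to 0.893 in HET and 0.185 to 0.639 in WT (1.15 ± 0.53). zhx2b, a gene of a zinc-finger homeobox protein 2 places from hnrnpr, had 12, 3 and 2 counts in HOM1 to HOM3, or 0.148 to 0.279 CPM, against 0.0654 to 0.488 CPM in HET and 0.453 to 0.629 in WT. It was chosen after its values were seen. None of these 4 genes passed edgeR's test (adjusted p = 0.9999 for each in HOM versus WT), as no gene tested did. Without scaling, dus3l, ehmt2 and ensaa overlapped between HOM and WT, and zhx2b did not (0.116 to 0.400 CPM in HOM and 0.45 to 0.622 in WT).

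Most genes close to tert lay on no common side. In the window of 20 places, 11 of 19 genes lay above 0 and 8 below in HOM versus WT, with a median log2 fold change of 0.02 and a range of -0.62 to 1.15. Within 50 places 19 of 41 lay above and 22 below. Over all genes tested 8275 lay above and 10866 below. As examples chosen after their values were seen, nup42, a nuclear pore gene directly before tert, was at 0.09 ± 0.32 for HOM versus WT and 0.36 ± 0.28 for HET versus WT. The actin regulator gene fhod3a, 4 places after tert, was at 0.55 ± 0.54 and 0.23 ± 0.48.

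**Figure D3:**
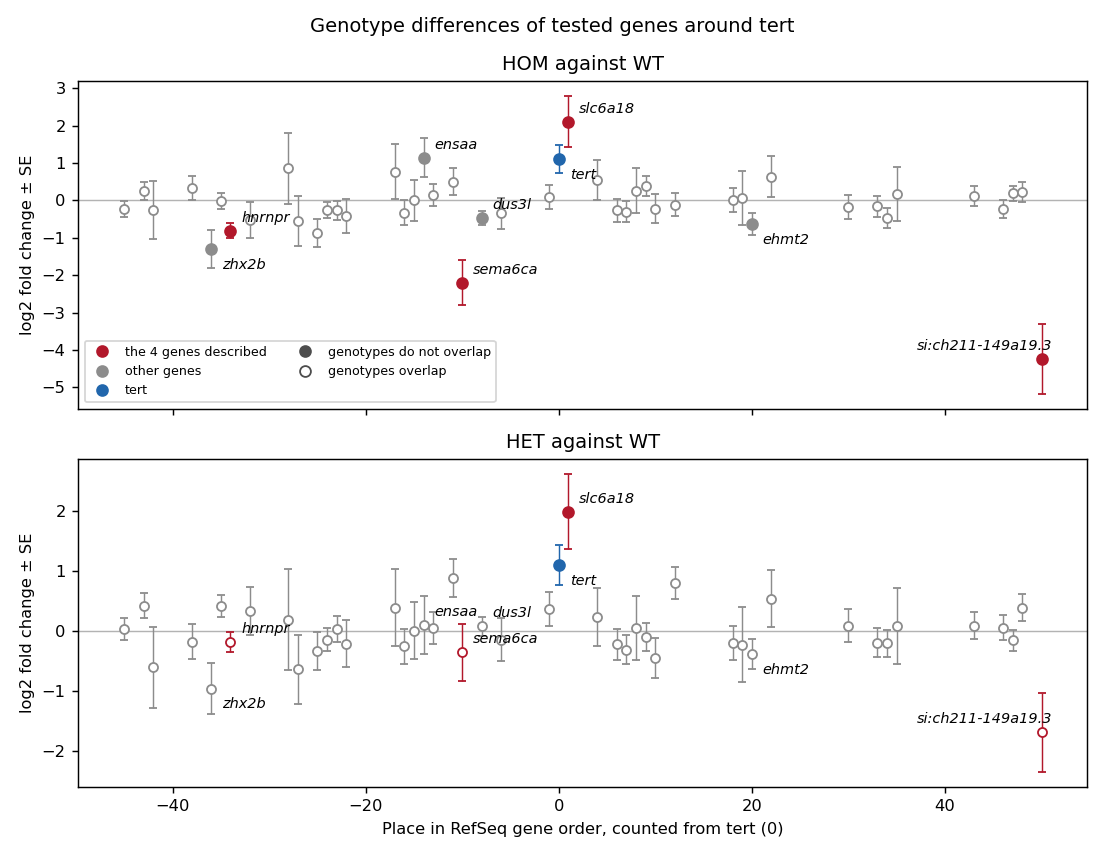
log2 fold change (± SE) of the tested genes within 50 places of tert for HOM versus WT (top) and HET versus WT (bottom), by place in RefSeq gene order; filled points mark genes whose genotypes do not overlap in scaled CPM. In the top panel the 4 members, tert, zhx2b, ensaa, dus3l and ehmt2 are filled, with si:ch211-149a19.3 at -4.24 and slc6a18 at 2.11, and in the bottom panel only tert and slc6a18 are.

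Relatives of the members at other loci were counted from lists of gene families, in which DESeq2 called 0 genes in any comparison. Over all genes DESeq2 called 0.189% in HOM versus WT, 0.783% in HET versus WT and 0.00526% in HOM versus HET. Lists this short can be without a call at such shares. edgeR called 0 of 19141 genes in each comparison, so its 0 in each list was fixed beforehand. Nothing about the relatives is read from these 0 counts. The share of all genes at an unadjusted p under 0.05 was 2.73% in edgeR's HOM versus WT. Of the closest relatives of hnrnpr, 4 of 6 were tested and 0 passed edgeR's test in any comparison, with 1 at an unadjusted p under 0.05 in HOM versus WT. syncrip, the nearest relative in sequence and function, had 144.0 ± 6.67 CPM in HOM, 143.7 ± 22.8 in HET and 127.6 ± 31.9 in WT (log2 fold change 0.17 ± 0.23 for HOM versus WT, edgeR adjusted p = 0.9999). The gene at an unadjusted p under 0.05 was a1cf, an RNA-editing cofactor of the liver. It had 0.320 ± 0.192 CPM in HOM, 0.30 ± 0.174 in HET and 16.0 ± 34.4 in WT. Its SD in WT exceeded its mean, and HOM and WT overlapped. Summed liver markers ran from 75.5 to 27461 CPM in WT, and their part in the level of a1cf was not tested. From a list of 39 names of other hnRNP genes, 28 gene IDs were found and tested. The name hnrnpk matched both ENSDARG00000007034 and ENSDARG00000018914. Of the 28, 0 passed edgeR's test and none was without overlap in any comparison. Their median log2 fold change was 0.08 in HET versus WT and -0.05 in HOM versus WT. raly and pcbp3, which had the lowest p of the list for that comparison, were at -1.01 ± 0.67 and -1.14 ± 0.83.

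Among other semaphorins, 18 of 33 were found by name and 17 were tested. Of the 17, 0 passed edgeR's test, as 0 of all genes did, and 1 had an unadjusted p under 0.05 in HOM versus WT. Over all genes tested that share was 2.73%. Of the semaphorins tested, 11 lay above and 6 below 0 in HOM versus WT (median 0.12), and sema6ca lay below. Over all genes tested, 8275 lay above and 10866 below 0. sema4aa (2.06 ± 0.81) and sema3c (0.76 ± 0.46) had the smallest p. sema4aa had 0.989 ± 1.24 CPM in HOM and 0.216 ± 0.138 in WT. Its SD in HOM exceeded its mean, and HOM and WT overlapped. Plexins, neuropilins and their relays, which receive semaphorin signals, had 13 of 27 genes found by name, and all 13 were tested. Of these, 0 passed, with a median of -0.000836 in HOM versus WT and -0.01 in HET versus WT. In HET versus WT 1 of the 13 (7.69%) lay lower without overlap, beside 0.564% of all genes without overlap on either side. In HOM versus HET 1 had an unadjusted p under 0.05 by edgeR, beside 2.74% of all genes. The plexin plxna2 was at -1.04 ± 0.68 and the relay mical3b at -0.48 ± 0.44.

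Of other Slc6 transporters, 15 of 27 were found by name and 11 were tested, and 0 passed in any comparison. In HOM versus WT 9 of them lay below 0 and 2 above (median -0.14), and slc6a18 lay above. Over all genes tested, 10866 lay below and 8275 above 0. slc6a14, an amino acid transporter, was at -1.88 ± 0.92 with 0.436 ± 0.340 CPM in HOM and 1.52 ± 1.88 in WT, and slc6a11a, a GABA transporter, at 1.14 ± 0.69. Of the membrane partners of Slc6a18 known from mouse, cltrn alone was tested (0.0728 ± 0.0743 CPM in HOM, 0.370 ± 0.514 in HET and 0.409 ± 0.654 in WT, log2 fold change -2.33 ± 1.60 for HOM versus WT), and it did not pass.

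The genes whose pattern over the 13 samples was most like that of each member were found by Spearman's rho of log2 CPM, given as a description, since libraries and genotypes are shared. Closest to hnrnpr were ears2 (0.918), ccndbp1 (0.918) and mhc1zda (0.907), and gcnt4 was most opposed (-0.890). For sema6ca they were mllt10 (0.951), ppef2 (0.924) and tial1 (0.912), with srp68 most opposed (-0.912). Closest to si:ch211-149a19.3 were cep192 (0.934), ENSDARG00000096363 (0.929) and si:ch73-236c18.3 (0.883), with spcs1 most opposed (-0.907). Of these, ENSDARG00000096363 had 0.292 CPM in HOM, 2.52 in HET and 8.07 in WT, and si:ch73-236c18.3, which RefSeq places on another chromosome, had 0.0825 in HOM, 4.03 in HET and 8.42 in WT. slc6a18 had no gene above 0.857, the value of cd22, followed by ENSDARG00000090544 (0.813) and rbms1 (0.802), with cpeb4 most opposed (-0.857). Genes above 0.8 numbered 54 for hnrnpr, 88 for sema6ca, 14 for si:ch211-149a19.3 and 3 for slc6a18. The genes named are the extremes of 19141 over 13 samples, so none of these values is read as a finding. Those of slc6a18 rest on as few as 0 to 32 counts per sample.

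The fold changes of the members kept their sign in HOM versus WT under every alternative run, with 1 sample left out or with other processing. With 1 sample left out, HOM versus WT ran from -0.87 to -0.75 for hnrnpr, from -2.43 to -1.86 for sema6ca, from -4.64 to -3.32 for si:ch211-149a19.3 and from 1.85 to 2.53 for slc6a18. The signs of sema6ca in HET versus WT (0.19 without WT1 and WT5) and of slc6a18 in HOM versus HET (-0.01 at the lowest with 1 sample left out) did change.

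**Figure D4:**
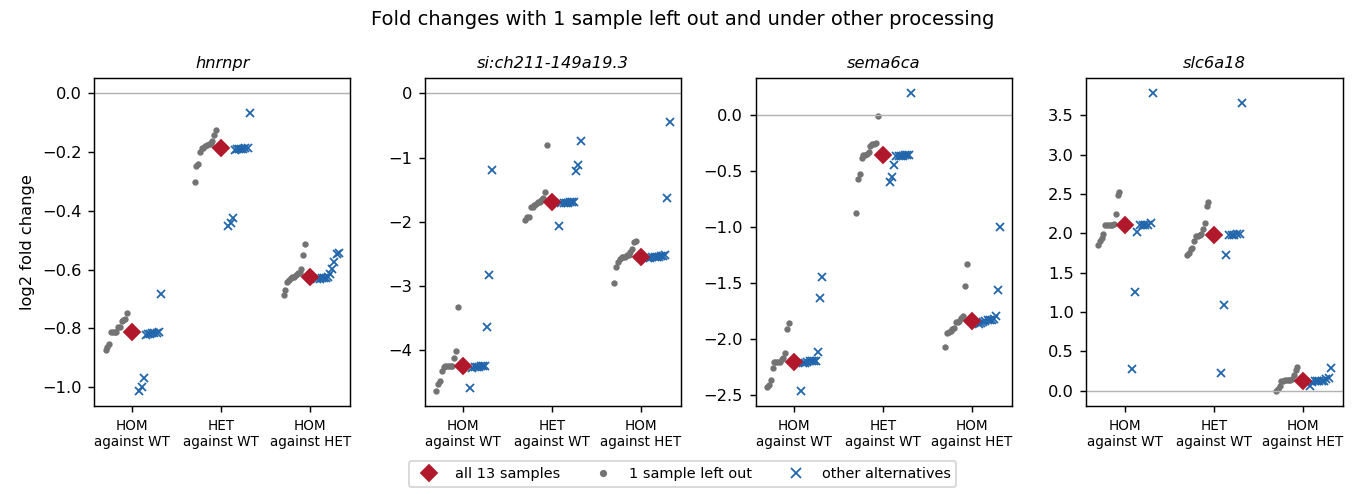
log2 fold change of each member in 3 comparisons for all 13 samples (diamonds), with 1 sample left out (dots) and under other normalizations, filters, tools and units (crosses); each gene has its own axis. Values of HOM versus WT stay on their side of 0 for all 4 genes, and log2(RPKM + 1) gives -1.19 for si:ch211-149a19.3 and 0.27 for slc6a18.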

How the data were processed

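RNA was sequenced from skin in 13 samples (3 HOM, 5 HET and 5 WT). The library kit (TruSeq RNA v2) carries no strand information. The submitters' processing notes name bcl2fastq 1.8.4, STAR 2.4.1d, featureCounts 1.4.6-p4 and the build GRCz10, while the study's methods name kallisto for its own expression values. The authors deposited raw counts of reads for each gene and a table named RPKM. That second table was handled as a score, since the authors' values were divided by the 13 library totals taken in turn down the rows: gene lengths implied by both tables then varied by 0.0026% between samples (median CV, 3854 genes over 200 counts in every sample), and by 32.3% with each library's own total. It served only for these lengths.

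Groups came from the strain label. Replicates were numbered in record order, which pairs no samples. Of the IDs, 81.8% (26269) had a symbol, and 17357 could be placed in the RefSeq table of GRCz12tu by symbol or synonym, which gave gene order only. Counts were fitted with edgeR 4.0.16 in R 4.3.3 (filterByExpr, TMM with factors of 0.769 to 1.43, glmQLFit with robust moderation and glmQLFTest, two-sided, Benjamini-Hochberg over 19141 genes, threshold 0.05), with all 13 samples sharing 1 estimate of the spread. The SE is the absolute log2 fold change over the square root of F. Scripts were tested on simulated data. Alternatives were DESeq2 1.42.0 on the same genes, other scalings and filters, limma 3.58.1 on RPKM rebuilt from the counts, and leaving out samples. The place of HET between WT and HOM was recomputed from each of these. The study itself used DESeq2.

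The members and gene lists were chosen with earlier results of these data known. Named were the members, tert, neighbours of tert that passed or whose HOM and WT levels did not overlap, the 2 genes with the smallest p of each family list, and the 3 genes most like and the 1 most unlike each member. zhx2b, nup42, fhod3a, ggcta and the samples compared with marker lists were chosen after their values were seen.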

Additional observations from a re-analysis of the deposited data

Results flagged for a closer look

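Of 18 groups of 5 samples checked (members, tert and 4 neighbours in HET and in WT), 1 held a sample far from the rest by Dixon's test, which chance gives in about 1 of 20 groups. It was sema6ca in HET5, with 22.7 CPM, where the other HET samples lay between 6.6 and 7.84 CPM. The gap to the nearest was 0.923 of the range of the 5 samples, above the critical value of 0.71.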

How the results depend on the processing

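DESeq2 called 36 genes in HOM versus WT, 123 in HET versus WT and 1 in HOM versus HET, where edgeR called 0 under each other alternative and with any sample left out. Without scaling, the genes without overlap numbered 143 (main value 226), 207 (108) and 216 (479) in these comparisons, and without WT1 and WT5 921 and 763 in the first and second. With 1 sample left out they ran from 205 to 1337, from 108 to 381 and from 460 to 2459, as fewer samples overlap less often, with the highest values without HOM2, WT5 and HOM2. Of the other genes within 20 places of tert, 3 did not overlap in HOM versus WT (0 without scaling, 3 to 4 with 1 sample left out), 0 in HET versus WT (1 without WT1 and WT5, 0 to 1 with 1 sample left out) and 2 in HOM versus HET (1 without scaling, 1 without WT1 and WT5, 1 to 4 with 1 sample left out). Of the members, 1 did not overlap in HET versus WT, against 0 without scaling, 0 with at least 1 CPM in 3 samples, a filter that removes slc6a18, and 0 to 1 with 1 sample left out (0 without WT1).

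hnrnpr in HET versus WT was at -0.45 without scaling and at -0.44 and -0.43 by limma on log2(RPKM + 0.1) and log2(RPKM + 1), with -0.30 to -0.13 with 1 sample left out. log2(RPKM + 1) gave -1.0 for sema6ca and -0.45 for si:ch211-149a19.3 in HOM versus HET. si:ch211-149a19.3 in HOM versus WT was at -2.83 and -1.19 with pseudocounts of 0.1 and 1. With the same pseudocounts slc6a18 was at 1.25 and 0.27 in HOM versus WT and at 1.08 and 0.22 in HET versus WT, since a pseudocount shrinks the change of rare transcripts. Without WT1 and WT5, which removes most WT counts of slc6a18, it was at 3.78 in HOM and 3.65 in HET. No paired analysis was possible because the labels give no replicate numbers shared between genotypes. The depth limits slc6a18 and the HOM values of si:ch211-149a19.3, which rest on 0 to 32 counts per sample.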
